A study of Mus musculus with 35 samples.

Results

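The genes described here are 31 genes of the unfolded protein response and the integrated stress response, measured in microglia sorted from mouse spinal cord. They were taken by name from textbook membership of these pathways, by a rule that uses no measured value but was set with earlier results of these data known. All 31 were found by symbol among the 45706 genes of the expression tables, and all 31 passed the filter on low counts. They fall into 5 sensors and transcription factors, 9 targets mainly of XBP1, 12 targets mainly of ATF6, and 5 genes of the ATF4 arm, although several targets answer to more than one factor.

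Proteins that enter the secretory pathway fold in the endoplasmic reticulum (ER), and unfolded protein there is sensed by IRE1 (the product of Ern1), PERK (Eif2ak3) and ATF6. IRE1 splices the mRNA of Xbp1 into the form that encodes an active transcription factor, ATF6 is cleaved into one, and PERK phosphorylates the translation factor eIF2, which lowers protein synthesis and favours translation of ATF4. Kinases outside the ER, among them GCN2, which senses a lack of amino acids, phosphorylate the same factor, so that ATF4 targets also report the integrated stress response. Both IRE1 splicing and ATF4 translation act after transcription, and gene-level counts do not measure either of them. Microglia are the resident macrophages of the central nervous system and secrete proteins such as complement and cytokines.

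The libraries came from NEFH-tTA/tetO-hTDP43 (rNLS8) mice, in which the neurofilament heavy chain promoter places a human TDP-43 transgene under doxycycline control in neurons, not in the microglia that were sorted, and from wild-type (WT, -/-) littermates. All were of mixed C57BL/6J X C3HeJ F1 strain and were kept on doxycycline until 8 to 12 weeks of age. Early disease was 7 rNLS8 (+/+) libraries taken 2 weeks after doxycycline was withdrawn, late disease 7 taken 6 weeks after withdrawal, and recovery 7 taken after 6 weeks without doxycycline and 1 week back on it. As controls, 14 libraries came from 6 rNLS8 (+/+) mice left on doxycycline for those 6 weeks and 8 WT mice, of which 4 had been off doxycycline for 2 weeks, 1 for 6 weeks, and 3 off for 6 weeks and back on for 1 week. Cells were taken from whole spinal cord by CD11b and CD45 staining, and the libraries held 13.9 to 20.4 M expected counts each. Titles of the libraries begin with a date code, whose meaning the labels do not state. All recovery libraries carried code 0803, and 9 controls (the 6 rNLS8 mice and the 3 WT mice back on doxycycline) carried 0810. Early and late libraries carried 1019, 1102 and 1130, of which 1019 and 1102 also held the other 5 WT controls. Nothing in the labels states that libraries came from separate animals, so p-values measure the spread between these samples.

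All 12 microglial markers were detected in every group, with a summed level of 67517 to 89348 CPM (counts scaled to library size) in controls and 51911 to 75501 in late disease. Summed neuronal markers reached at most 4.31 CPM in controls. Oligodendrocyte markers summed to 169 to 243 CPM in controls and 147 to 211 in late disease. Astrocyte markers summed to 213 to 1820.2 and 179 to 2728 CPM, nearly all of it Slc1a3, and the other 5 astrocyte markers to 0.491 to 12.2 and 2.53 to 8.95 CPM. The 13 neutrophil markers summed to 455 to 853 CPM in controls, 684 to 1066 in late disease and 793 to 7753 in recovery. Most of the sum in controls and late disease was Csf3r, at 437 to 775 and 683 to 865 CPM. The other 12 had medians under 1 CPM in both groups, with a median sum of 0.815 CPM in controls, 1.71 in late disease and 1688 in recovery, but single libraries reached 329 CPM in controls and 318 in late disease. A second library measure differed by date. The share of TPM (transcript abundance scaled to length and library) missing from the deposited table was 13.9 to 30.8% in the 9 controls of code 0810, 3.76 to 11.4% in the other 5 controls and 2.32 to 4.58% in late disease.

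Promoter sequence gives a first view of what these genes share. RefSeq promoter windows on GRCm38.p6, running from 250 bases before to 50 after the annotated start, were found for 27 of the 31 genes, and were searched on both strands. The ER stress response element (ERSE), a classical site of ATF6 and XBP1 with the factor NF-Y, was searched as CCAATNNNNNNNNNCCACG. It was present in 8 of the 27 and in 39 of all 32851 promoter windows, or 0.119%. The shorter element ERSE-II, ATTGGNCCACG, which shares the letters CCACG with ERSE, was present in Dnajb11 and Herpud1 and in 0.0365% of all windows, and no member held both. The XBP1 core site was searched as TGACGTGG. The amino acid response element, bound by ATF4 with C/EBP factors, was searched as TGATGNAAT. These exact strings were in none of the 27 windows and in 0.676% and 0.965% of all windows. Letters differing from TGATGNAAT only in the last were in the windows of Asns (TGATGAAAC), Chac1 and Herpud1 (GTTGCATCA, reverse orientation) and Trib3 (TTTACATCA, reverse orientation). Such variants were not counted over all windows, so absence of the element from these genes cannot be read from the search. An absent match says only that these letters are not in the window. The ERSE matches are shown in capitals as they read on the strand of the gene, because all 8 genes belong to the XBP1 or ATF6 arm and 3 of them fell in late disease.
Hspa5: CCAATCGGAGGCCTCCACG
Pdia6: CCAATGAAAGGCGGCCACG
Dnajc3: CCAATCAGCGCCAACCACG
Syvn1: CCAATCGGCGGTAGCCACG
Canx: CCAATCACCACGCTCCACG
Calr, reverse orientation: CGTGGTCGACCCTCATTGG
Creld2, reverse orientation: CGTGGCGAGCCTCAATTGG
Hsp90b1, forward match: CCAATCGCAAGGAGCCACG
Hsp90b1, reverse match: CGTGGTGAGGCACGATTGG

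The whole windows are given for the 3 members that both carried ERSE and fell in late disease. Capitals mark the letters of the element, and lower case within it marks its unspecified positions. The windows of Hspa5 (chr2:34771840-34772139, plus strand), Pdia6 (chr12:17266339-17266638, plus strand) and Creld2 (chr15:88819396-88819695, plus strand) read as follows.
Hspa5: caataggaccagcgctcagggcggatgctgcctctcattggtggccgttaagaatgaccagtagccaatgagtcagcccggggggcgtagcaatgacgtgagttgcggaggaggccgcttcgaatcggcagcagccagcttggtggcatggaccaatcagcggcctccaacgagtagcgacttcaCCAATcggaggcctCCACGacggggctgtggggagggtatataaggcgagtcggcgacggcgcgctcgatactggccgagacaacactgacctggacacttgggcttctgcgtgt
Pdia6: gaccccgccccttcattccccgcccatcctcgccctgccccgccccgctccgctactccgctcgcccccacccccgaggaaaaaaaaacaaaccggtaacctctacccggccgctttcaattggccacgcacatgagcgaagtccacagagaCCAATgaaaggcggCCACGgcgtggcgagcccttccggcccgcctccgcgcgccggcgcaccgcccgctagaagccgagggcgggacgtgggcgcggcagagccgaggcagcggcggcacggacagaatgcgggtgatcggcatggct
Creld2: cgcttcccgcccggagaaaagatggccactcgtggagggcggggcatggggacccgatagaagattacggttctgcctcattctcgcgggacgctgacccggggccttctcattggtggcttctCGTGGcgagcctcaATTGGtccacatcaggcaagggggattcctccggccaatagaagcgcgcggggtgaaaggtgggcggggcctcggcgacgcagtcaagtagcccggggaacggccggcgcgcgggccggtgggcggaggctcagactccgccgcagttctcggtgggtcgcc
Of the 10 members with ERSE or ERSE-II, 3 fell in late disease and none rose. Of the 17 members with a window but neither element, 4 fell and 3 rose. The 2 sets differ in arm. All 10 with an element belong to the XBP1 or ATF6 arm, and the 3 that rose were ATF4-arm genes. Dnajb9, Derl2 and Sdf2l1, of the XBP1 and ATF6 arms, fell without either element. These counts therefore do not link the element to a fall. Over all tested genes 6.39% fell and 9.01% rose. The calls of Hspa5, Pdia6 and Creld2 ended without late library 6, and also when only controls sharing dates with late disease were used. The match is a description of the sequence and does not show binding.

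In control microglia the ER chaperones stood far above the ATF4 targets. Levels between genes are compared here in TPM, which is scaled to transcript length, as mean ± SD over the 14 controls. The most abundant members were Pdia3, a protein disulfide isomerase, at 1017 ± 153 TPM, Hspa5, which encodes the central ER chaperone BiP, at 961 ± 116, and Calr, the lectin chaperone calreticulin, at 939 ± 140.2. The mean ± SD of these 3 overlapped. All members were measured in the same libraries, and differences between genes within a library were not tested. Hsp90b1 (GRP94) at 697 ± 148, Pdia6 at 534 ± 55.1, Canx (calnexin) at 489 ± 71.9 and Xbp1 at 477 ± 37.5 TPM came next. The mean ± SD of Canx overlapped those of Pdia6 and Xbp1. Among the sensors, Eif2ak3 and Atf6 stood at 23.9 ± 6.17 and 23.7 ± 6.98 TPM and overlapped, while Ern1 was lower, at 7.02 ± 2.0. Atf4 stood at 66.1 ± 18.3 TPM. At the bottom were Asns at 1.38 ± 1.13, Trib3 at 0.994 ± 1.43 and Chac1 at 0.348 ± 0.44 TPM. Trib3 had no counts in 6 of the 14 controls and Chac1 in 7.

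Late disease was the stage at which members differed from control. With edgeR's quasi-likelihood test over 13501 genes, 8 members were lower and 3 were higher in late disease at an adjusted p under 0.05, where 15.4% of all tested genes were called, 6.39% lower and 9.01% higher. Values below are the lowest, median and highest CPM of a group, followed by the fitted log2 fold change with its standard error and Benjamini-Hochberg adjusted p. In sorted bulk samples a lower share of cells with a transcript and less of it per cell cannot be told apart. The split followed the arms of the response. The ER folding and degradation targets of XBP1 and ATF6 supplied 7 of the 8 lower genes, and all 3 higher genes were ATF4-arm genes. Over all tested genes the median log2 fold change was 0.019. On log2(TPM + 1), a scale on which the median of all genes in late disease itself stood at 0.18, limma called 3 members lower (Xbp1, Dnajb9 and Derl2) and 8 higher. Of the 13188 genes tested on that scale, 197 were called lower and 2627 higher. None of the 11 edgeR calls held without the 9 controls of code 0810, as set out after the arms. Late library 6 stood apart from its group in several members, and without it 5 of the 11 calls remained.

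**Figure D1:**
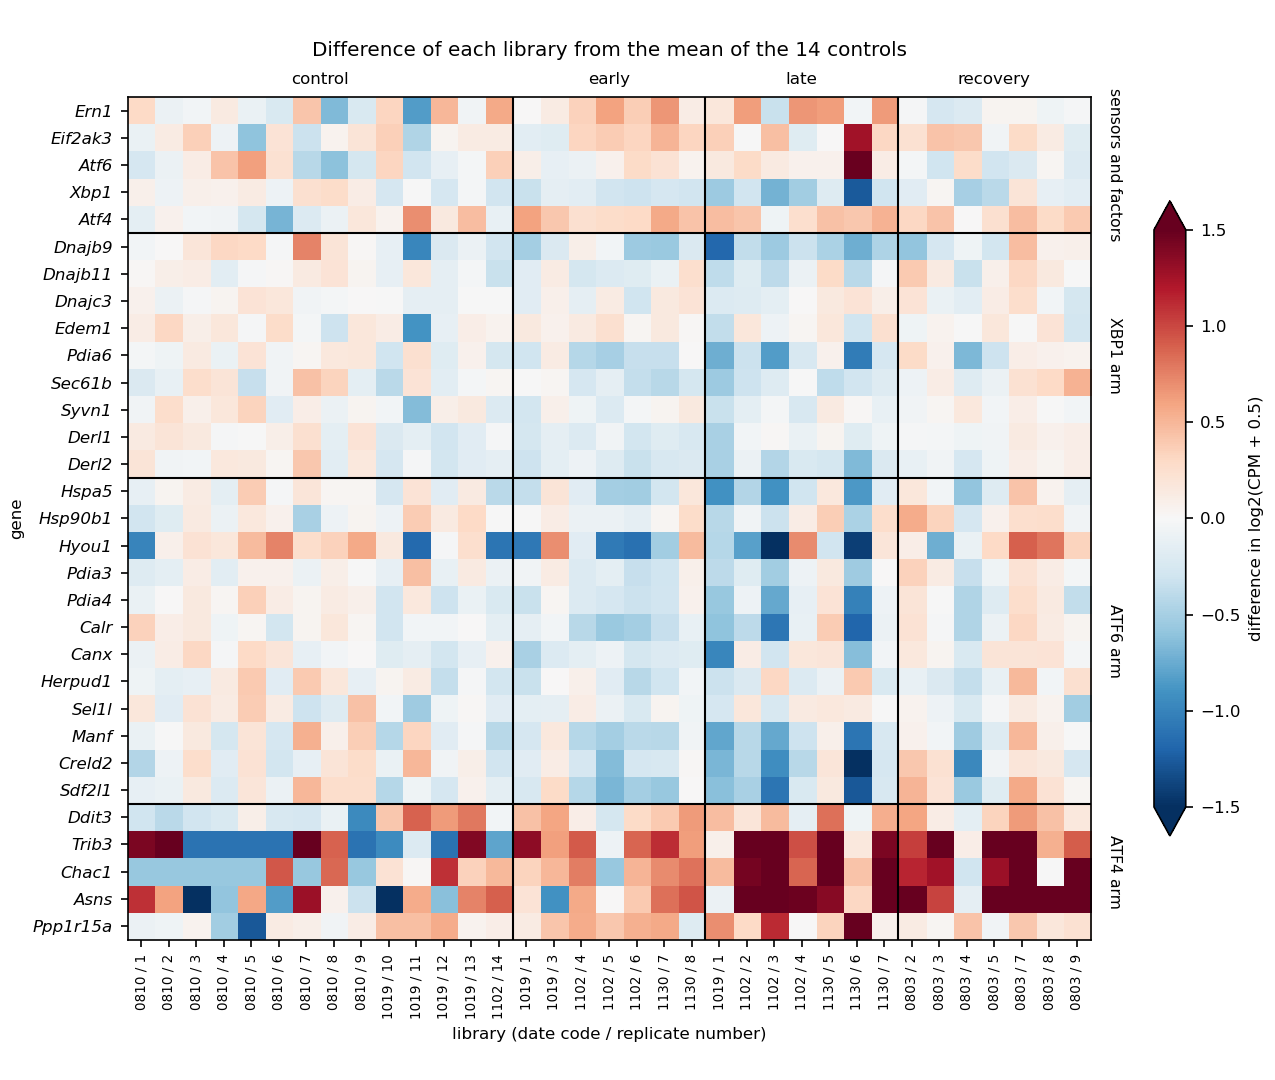
Each cell is the difference in log2(CPM + 0.5) of one library (columns, by group and date code) from the mean of the 14 controls, for each of the 31 genes (rows, by arm); colours saturate at 1.5. The Xbp1 row and most XBP1-arm and ATF6-arm rows are bluer in late disease, most of all in late libraries 1, 3 and 6, and the rows of Trib3, Chac1 and Asns are redder in late disease and recovery.

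Among the 5 sensors and factors, Xbp1 was called and was lower. It encodes the transcription factor activated by IRE1 and lies at chr11:5520659-5525893 on the plus strand of mm10. Its level was 479.9, 596 and 709.6 CPM in controls and 243, 407 and 509.5 in late disease, a log2 fold change of -0.52 ± 0.11 (adjusted p = 0.0014). All 7 late libraries lay below the control median and 6 lay below every control, and late library 5 overlapped the controls. Xbp1 stood at 464, 480.2 and 530.1 CPM in early disease and 415, 523 and 669.9 in recovery.

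The other 4 had positive estimates that missed the threshold. Ern1, the IRE1 sensor, had a median of 19.1 CPM in controls and 30.7 in late disease (0.38 ± 0.15, adjusted p = 0.081). For Eif2ak3, the PERK kinase, the estimate was 0.32 ± 0.14 (adjusted p = 0.11), and for Atf6 it was 0.37 ± 0.16 (adjusted p = 0.12). Late library 6 alone reached 273 CPM of Atf6 and 143 of Eif2ak3, and it also had the lowest Xbp1, at 243. Atf4, the effector of phosphorylated eIF2, ranged from 39.9 to 106 CPM in controls and 62.5 to 94.1 in late disease (0.32 ± 0.12, adjusted p = 0.059), and 6 of 7 late libraries lay above the control median.

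In the XBP1 arm 3 of 9 genes fell and the other 6 also had estimates below 0, with a median over the arm of -0.16. Against the 5 WT controls of shared dates 4 of the 9 estimates were above 0 (median -0.076), and with date as a term 1 was (median -0.095). Dnajb9, an ER co-chaperone of BiP that restrains IRE1, was at 43.8, 86.7 and 145 CPM in controls and 38, 62.2 and 69.5 in late disease, a log2 fold change of -0.58 ± 0.14 (adjusted p = 0.0063). All 7 late libraries were below the control median, but only late library 1 was below every control. Pdia6, a disulfide isomerase, was at 554, 679.7 and 804 CPM in controls and 329.7, 546 and 712 in late disease (-0.44 ± 0.13, adjusted p = 0.015), with 4 of 7 late libraries below every control. Derl2, a component of the channel that takes misfolded protein out of the ER, was at 133, 157 and 214 CPM in controls and 101, 134 and 152 in late disease (-0.32 ± 0.08, adjusted p = 0.0055). All 7 late libraries were below its control median and 3 below every control. Derl2 overlaps Mis12 on the opposite strand, which held a mean of 716 expected counts, and these libraries do not mark the strand.

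The remaining XBP1-arm genes were closer to control. Sec61b, a subunit of the translocon through which proteins enter the ER, had an estimate of -0.29 ± 0.11 (adjusted p = 0.077). Dnajb11, another BiP co-chaperone, stood at -0.16 ± 0.096 and Derl1, a paralogue of Derl2, at -0.11 ± 0.073. A further 3 lay nearer 0, namely the degradation ligase gene Syvn1 (HRD1) at -0.09, the mannosidase-like Edem1 at -0.018, and Dnajc3 at -0.0094. Dnajc3 encodes p58IPK, an inhibitor of eIF2 kinases, and its 95% interval ran from -0.17 to 0.15.

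In the ATF6 arm 4 of 12 genes fell and the median was -0.32, with 11 of 12 estimates below 0. Hspa5 was at 1079, 1455 and 1851 CPM in controls and 759, 1049 and 1593 in late disease, a log2 fold change of -0.44 ± 0.14 (adjusted p = 0.027). Of its late libraries 4 lay below every control, while late library 5 lay above the control median. Creld2, an ER protein with disulfide isomerase activity, was at 56.1, 73.1 and 108 CPM in controls and 19.7, 57.1 and 86.5 in late disease (-0.55 ± 0.18, adjusted p = 0.033). Its lowest value was that of late library 6, and 3 late libraries were below every control.

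Manf, a secreted ER-stress-induced factor with trophic activity, was at 99.5, 133 and 194 CPM in controls and 62.4, 100.1 and 142 in late disease (-0.48 ± 0.15, adjusted p = 0.022). Sdf2l1, which works with BiP in the ER lumen, was at 154, 197 and 293 CPM in controls and 85.9, 149 and 229.9 in late disease (-0.48 ± 0.16, adjusted p = 0.041). In both genes 6 of 7 late libraries were below the control median, and late library 5 was above it. Manf overlaps Dcaf1 on the opposite strand and Rbm15b on its own, so part of its counts may belong to those genes.

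The 8 other ATF6-arm genes were not called. Estimates were -0.35 ± 0.14 for Calr, -0.30 ± 0.12 for the disulfide isomerase Pdia4 and -0.22 ± 0.096 for Pdia3, with adjusted p of 0.087, 0.094 and 0.12. Hyou1, the large ER chaperone GRP170, varied most within groups, from 39.9 to 152 CPM in controls and 28.9 to 148 in late disease (-0.41 ± 0.29, adjusted p = 0.37). Canx stood at -0.16 and Hsp90b1 at -0.065. The degradation genes Herpud1 and Sel1l, which form part of the HRD1 complex, stood at -0.022 and 0.0046, with 95% intervals of -0.25 to 0.20 and -0.21 to 0.22.

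In the ATF4 arm 3 of 5 genes rose, and all 5 estimates were above 0 (median 1.45), of which that of Ddit3 turned below 0 with other controls. Asns, asparagine synthetase, was at 0, 1.58 and 3.52 CPM in controls and 1.05, 4.07 and 7.81 in late disease, a log2 fold change of 1.77 ± 0.50 or 3.42-fold (adjusted p = 0.015). Of the late libraries 5 lay above every control, while 2 were below the control median. Chac1, which degrades glutathione, was at 0, 0.124 and 1.08 CPM in controls and 0.493, 1.5 and 3.28 in late disease (2.25 ± 0.75, adjusted p = 0.039), with 4 late libraries above every control. Counts of Chac1 ran from 0 to 19 per control library and 7 to 48 per late library, so the fold depends on few counts.

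Ppp1r15a (GADD34), the phosphatase subunit that reverses eIF2 phosphorylation, was at 7.63, 20.1 and 28.4 CPM in controls and 19.1, 24.2 and 80 in late disease (0.75 ± 0.20, adjusted p = 0.011). The value of 80 CPM came from late library 6. Without that library the estimate was 0.43 and the call was lost (adjusted p = 0.11). Trib3, a pseudokinase that inhibits ATF4 and AKT signalling, was at 0, 0.0899 and 5.85 CPM in controls and 0.63, 2.37 and 6.73 in late disease (1.45 ± 0.81, adjusted p = 0.23). Ddit3, which encodes the transcription factor CHOP, was at 5.9, 10.6 and 22.5 and 10.8, 16.6 and 21.5 CPM (0.29 ± 0.20, adjusted p = 0.33). Against the 5 WT controls of shared dates Ddit3 stood at -0.23 ± 0.21, with 6 of 7 late libraries below the median of those controls. It stood at -0.026 with date as a term and -0.03 with the missing TPM share as covariate. Ddit3 overlaps Mars on the opposite strand, which held a mean of 1720.3 expected counts, so its low level may include reads of that gene.

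**Figure D2:**
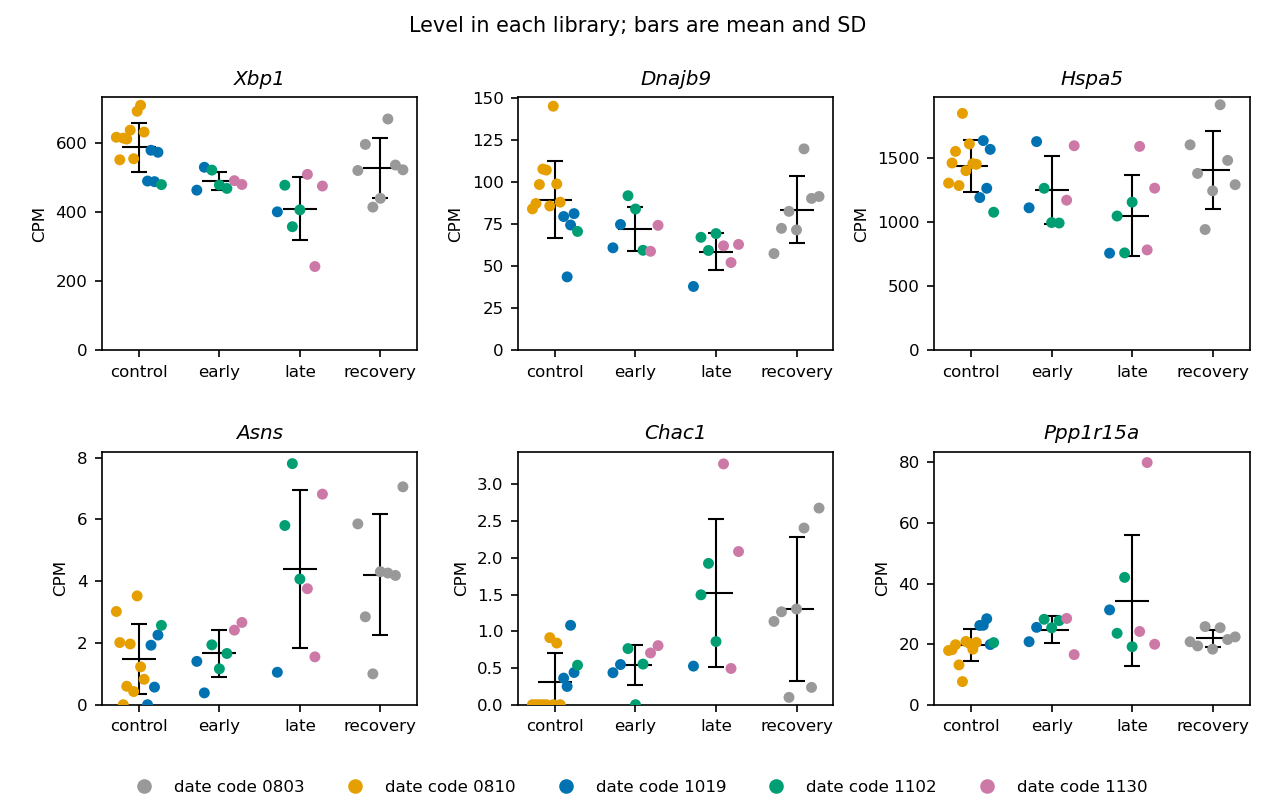
Level in CPM of 6 members in each library (points, coloured by date code) by group, with the group mean and SD as bars. Late libraries lie low for Xbp1, Dnajb9 and Hspa5 and mostly high for Asns and Chac1, the single high Ppp1r15a point at 80.0 CPM is late library 6, and for Dnajb9 the controls of code 0810 (84.2 to 145 CPM) lie above the other controls (43.8 to 81.4 CPM).

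The late calls rest on which controls are used. No late library shared a date code with the 9 controls of code 0810, and in a fit of the 19 libraries of codes 1019, 1102 and 1130 with date as a term none of the 31 members was called, where 0.0153% of tested genes were (edgeR; 1 member, Trib3, had an unadjusted p under 0.05, as did 10.4% of genes). All 11 estimates kept their direction there. Xbp1 stood at -0.31 ± 0.18 (adjusted p = 0.54), Dnajb9 at -0.35 ± 0.21 (0.56), Hspa5 at -0.36 ± 0.23 (0.6) and Creld2 at -0.49 ± 0.31 (0.59). Asns stood at 0.80 ± 0.81 and Ppp1r15a at 0.35 ± 0.37. The 4 sensors other than Xbp1 moved nearer 0, with Ern1 at -0.018, Eif2ak3 at 0.0093, Atf6 at 0.035 and Atf4 at 0.15.

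Choosing one kind of control gave different counts. Against the 8 WT controls alone 1 member was called (background 7.58%), Xbp1 at -0.42 ± 0.12 (adjusted p = 0.029). Against the 6 rNLS8 controls alone, all of code 0810, 7 members were lower and 5 higher (background 17.1% either way), among them Atf4 at 0.52 ± 0.12 (adjusted p = 0.0034), Ddit3 at 0.65 ± 0.19 (0.02) and Ern1 at 0.49 ± 0.17 (0.045). Against the 5 WT controls of shared dates none was called in edgeR (background 0.397%), 3 were higher and 2 lower at an unadjusted p under 0.05 (background 15.9%), and Xbp1 stood at -0.34 ± 0.14 (adjusted p = 0.23). With the TPM share missing from the table as a covariate none was called either (background 1.87%), with 3 higher and 2 lower at an unadjusted p under 0.05 (background 14.9%). The parts of date, doxycycline diet and transgene in the difference between control kinds were not tested apart from these fits.

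The levels of Xbp1 were also compared within dates. In code 1019 the 4 WT controls ranged from 488 to 579 CPM, the 2 early libraries stood at 464 and 530.1, and the late library stood at 401. In code 1102 the WT control stood at 479.9 CPM, the 3 early libraries from 469 to 522 and the 3 late libraries from 358 to 478. In both codes every late library lay below the WT controls of its code, but code 1102 held 1 control and late library 2 stood close to it, at 478.1. Early libraries 1, 5 and 6 also lay below the WT controls of their codes. In code 1130, which held no control, the 2 early libraries stood at 491 and 480.2 and the 3 late libraries ranged from 243 to 509.5. Those early libraries were female and those late libraries male. The 9 controls of code 0810 ranged from 552 to 709.6 CPM.

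**Figure D3:**
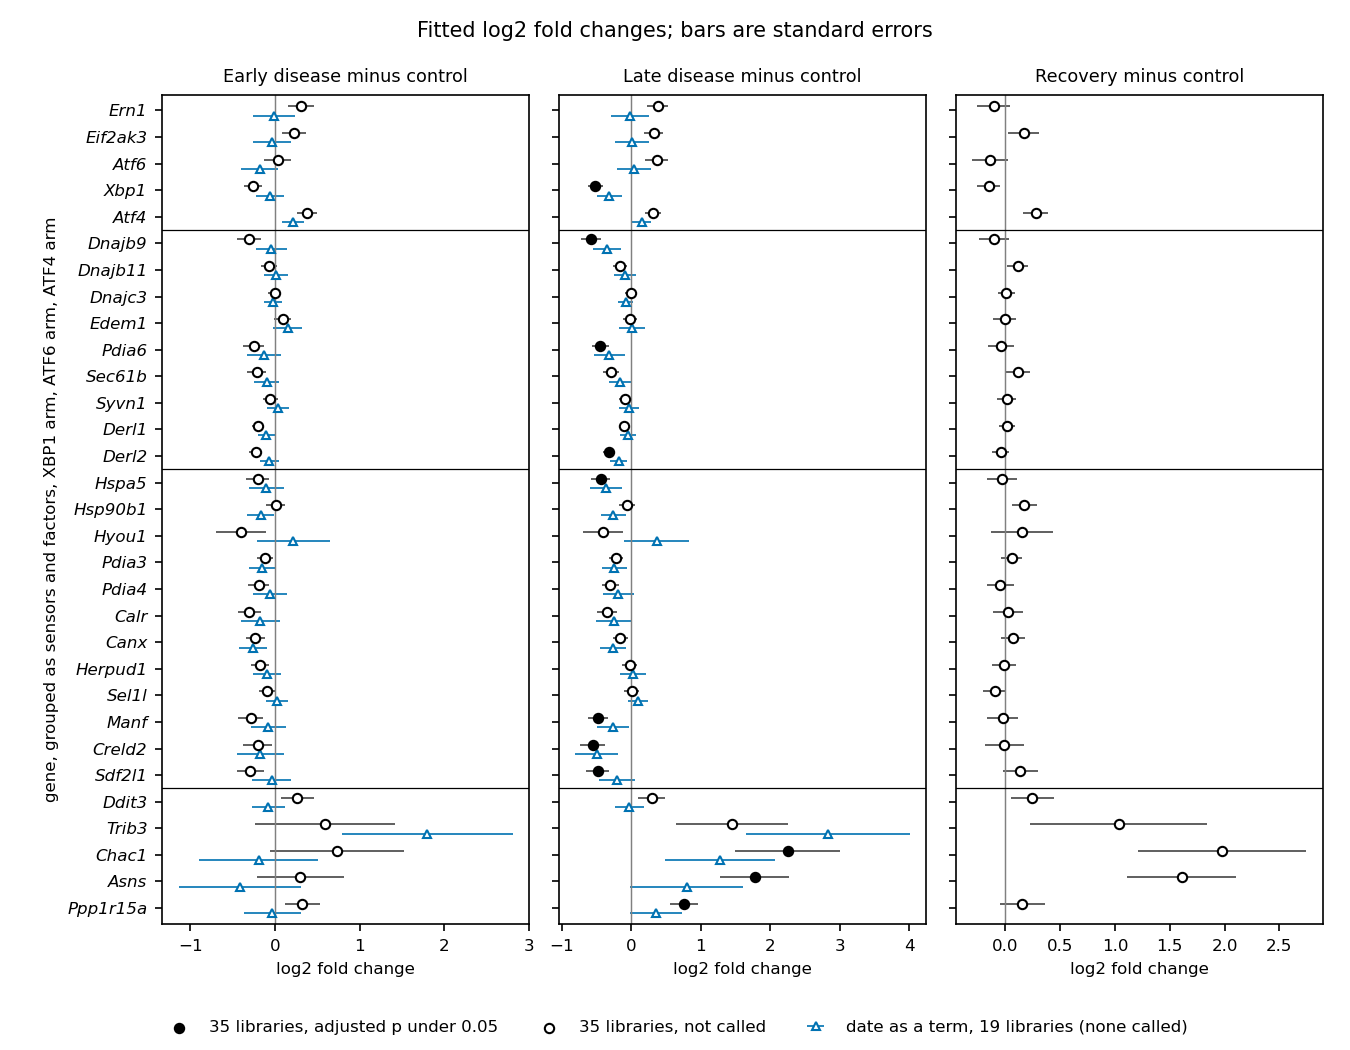
Fitted log2 fold changes with standard errors for each member (rows, by arm) in early disease, late disease and recovery against control; filled circles are called, open circles are not, and triangles are the fit of 19 libraries with date as a term. In late disease 11 circles are filled and no triangle is called, and in early disease and recovery no circle is filled.

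Averages over each arm put the control kinds side by side with the stages. The mean log2 CPM of the XBP1 arm was 7.53 ± 0.13 in controls, 7.40 ± 0.092 in early disease, 7.30 ± 0.17 in late disease and 7.54 ± 0.11 in recovery (SD over 14, 7, 7 and 7 libraries). Among controls it ranged from 7.55 to 7.76 in the 9 of code 0810 and from 7.28 to 7.51 in the other 5, without overlap. The ATF6 arm stood at 8.70 ± 0.15, 8.49 ± 0.21, 8.36 ± 0.37 and 8.73 ± 0.26 in the same order of groups. On log2(TPM + 1), where the median of all genes in early disease stood at 0.22, the early differences from control turned positive, 0.11 for the XBP1 arm and 0.040 for the ATF6 arm. The ATF6 arm ran from 7.87 to 8.83 over the late libraries and from 8.43 to 8.96 over the controls. For the ATF4 arm the means were 0.50 ± 1.08, 1.64 ± 0.57, 2.41 ± 0.62 and 2.18 ± 0.64, and its scale is set by the low counts of Trib3, Chac1 and Asns. With only Ddit3 and Ppp1r15a it was 3.91 ± 0.40 in controls and 4.42 ± 0.36 in late disease, but the controls split by date, at 3.67 ± 0.19 in the 9 of code 0810 and 4.36 ± 0.26 in the other 5, close to late disease. An average over all 31 genes was 6.67 ± 0.16 in controls, 6.76 ± 0.14 in early disease, 6.80 ± 0.24 in late disease and 6.96 ± 0.22 in recovery. Its difference from control was largest in recovery, at 0.29, but was 0.053 on log2(TPM + 1) with TPM rescaled to equal totals. By arm the recovery difference was 1.68 for the ATF4 arm, with its low counts of Trib3, Chac1 and Asns. For the XBP1 arm, the ATF6 arm and the sensors and factors it was 0.011, 0.032 and 0.030. In late disease this average hides the opposite directions of the arms.

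**Figure D4:**
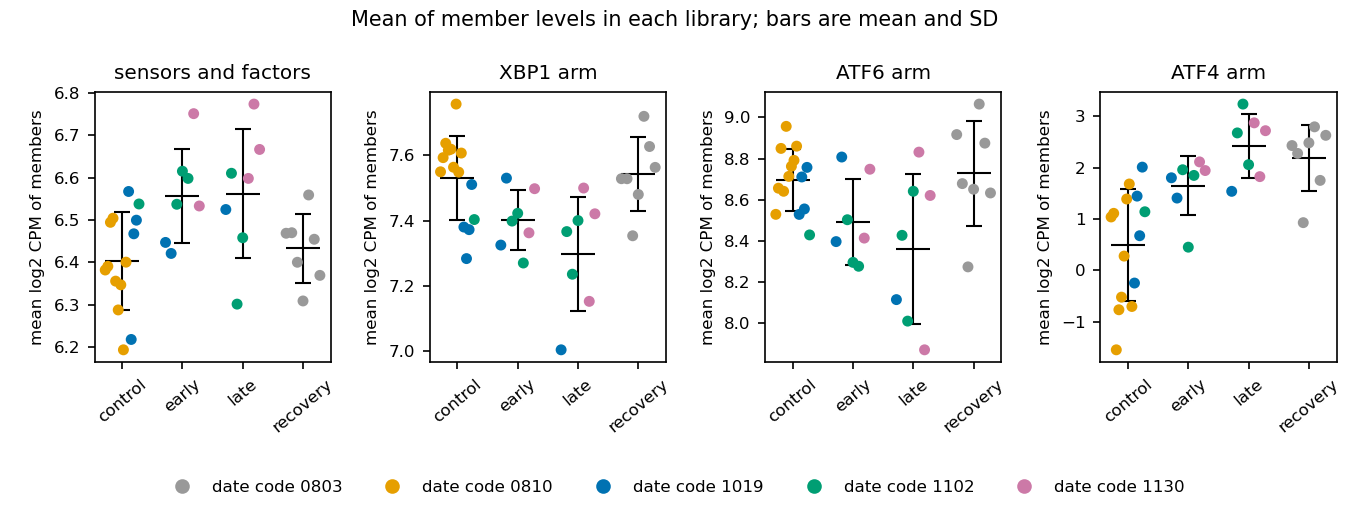
Mean log2 CPM over the members of each arm in each library (points, coloured by date code), with group mean and SD. Late libraries spread widely for the ATF6 arm, from 7.87 to 8.83, and controls of code 0810 sit above the other controls for the XBP1 arm.

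Libraries within late disease did not behave alike. Late library 5 had the highest value of the 7 for 16 of 31 members, among them 9 of the 12 ATF6-arm genes, and its Hspa5 and Calr stood at 1593 and 1499 CPM. Late libraries 1 and 6 each had the lowest value for 12 members, and 7 of the 12 ATF6-arm genes were lowest in library 6. In that library Creld2 stood at 19.7 CPM and Calr at 504. The same library had the lowest summed microglial markers of the late group, 51911 CPM, and the highest summed immediate early genes, 2423 against 1041 CPM at the late median. Their part in the late differences was not tested. Leaving out late library 6 kept Xbp1 at -0.42 and ended the calls of Pdia6, Hspa5, Manf, Creld2, Sdf2l1 and Ppp1r15a. The calls of Xbp1, Dnajb9, Derl2 and Asns held whichever library was left out.

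At the early stage none of the 31 members was called in edgeR or in DESeq2. Over all tested genes 0.00741% were called in edgeR, and 136 of 13501 in DESeq2. This comparison and those of late disease and recovery share their controls. At an unadjusted p under 0.05 there were 2 higher and 6 lower members, a share to be read against 12.6% of all genes. Atf4 had the smallest p (0.0022 unadjusted, adjusted p = 0.16 in edgeR), with 39.9, 63.2 and 106 CPM in controls and 77, 86.4 and 99.8 in early disease (0.38 ± 0.11). Of the 7 early libraries 7 lay above the control median and 0 above every control. Derl2 stood at -0.23 ± 0.079, Derl1 at -0.20 ± 0.073 and Xbp1 at -0.26 ± 0.10, with adjusted p of 0.22, 0.23 and 0.28. With date added as a term Atf4 was at 0.21 ± 0.13, Derl2 at -0.066 ± 0.11 and Xbp1 at -0.061 ± 0.16, and none of the 31 was called. The estimates of Asns and Chac1 were 0.30 ± 0.52 and 0.73 ± 0.79.

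Late and early disease could be compared within dates, in the same 19 libraries. Again none of the 31 members was called in edgeR (background 0.267%) or in DESeq2 (356 of 13112 genes called). Date and sex were terms of this fit, but sex was uneven within dates. In code 1130 the early libraries were female and the late libraries male, so stage and sex cannot be told apart there. In code 1102 the late libraries were all female, while early libraries 5 and 6 were male. Chac1 was the 1 member with an unadjusted p under 0.05 (background 14.7%), with 0, 0.553 and 0.804 CPM in early and 0.493, 1.5 and 3.28 in late disease (1.47 ± 0.59, adjusted p = 0.27 in edgeR). Asns stood at 0.383, 1.66 and 2.66 CPM in early disease, against the late values above, a log2 fold change of 1.21 ± 0.58 (adjusted p = 0.35). All 5 ATF4-arm estimates were above 0. Of the XBP1 and ATF6 arms, 8 of 9 and 9 of 12 estimates were below 0, including Creld2 at -0.32 ± 0.23, Dnajb9 at -0.30 ± 0.15 and Hspa5 at -0.25 ± 0.17. For Xbp1 it was -0.25 ± 0.14, with a 95% interval of -0.54 to 0.033.

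After 1 week back on doxycycline the ER chaperone genes stood near control and the ATF4 targets Asns and Chac1 above it, but no member was called against control in edgeR, where 3.98% of tested genes were. At an unadjusted p under 0.05 there were 3 higher members (background 17.4%), Atf4, Asns and Chac1. DESeq2 called Asns, where it called 759 of 13501 genes. All recovery libraries carried a date code of their own, so date and recovery cannot be told apart. Hspa5 was at 944, 1382 and 1918 CPM (-0.031 ± 0.13 against control), Dnajb9 at 57.6, 82.8 and 120.0 (-0.10 ± 0.14) and Creld2 at 39, 84.9 and 101 (-0.009 ± 0.17). The 95% interval for Hspa5 was -0.30 to 0.24. The median of the ATF6 arm was 0.009, and its 12 estimates split evenly in sign. Asns was at 1.0, 4.26 and 7.06 CPM (1.61 ± 0.50, adjusted p = 0.058 in edgeR) and Chac1 at 0.10, 1.27 and 2.68 (1.98 ± 0.77, adjusted p = 0.15). Of the recovery libraries, 5 of 7 lay above every control for Asns and 5 of 7 for Chac1. Asns was called when Control 7, Control 11 or recovery library 4 was left out. Ppp1r15a stood at 18.3, 21.5 and 25.8 CPM (0.15 ± 0.21).

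Directly against late disease, recovery also gave no call among the 31 (background 0.585%), with 12 members higher and 3 lower at an unadjusted p under 0.05, a level reached by 16.6% of all genes. DESeq2 called Sdf2l1. Sdf2l1 had the smallest p, at 141, 240.0 and 308 CPM in recovery (0.62 ± 0.19, adjusted p = 0.092 in edgeR). Estimates for Dnajb9, Hspa5 and Xbp1 were 0.47 ± 0.16, 0.40 ± 0.16 and 0.36 ± 0.12, while Asns and Chac1 stood at -0.16 ± 0.58 and -0.27 ± 0.90. Sdf2l1 was called without late library 5 (0.76), as were Hspa5 and Calr, and also without recovery library 4. Recovery library 4 had the lowest value of its group for 21 of 31 members, including 10 of the 12 ATF6-arm genes, and recovery library 7 the highest for 15. The late libraries enter this comparison and the one with control alike, so the estimates are not independent of each other. The neutrophil markers, whose median log2 fold change against late disease was 5.90 over the 11 tested, move with this comparison, and their part in it was not tested.

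Control kinds were compared within themselves. In code 0810 the 6 rNLS8 mice on doxycycline and the 3 WT mice gave no call among the 30 members tested (background 0.00772%; 2 higher at an unadjusted p under 0.05, background 3.92%), and Hyou1 had the smallest p (0.54 ± 0.22, adjusted p = 1 in edgeR). Between the 3 WT mice of code 0810 and the 5 WT mice of other codes, which also differed in diet, none of 30 was called (background 0.0235%; 2 higher and 1 lower at an unadjusted p under 0.05, background 9.45%). All 9 XBP1-arm estimates were above 0 there, with a median of 0.20. Ddit3 had the smallest p, at 5.9, 9.91 and 12.7 CPM in the 9 controls of code 0810 and 11.5, 18.8 and 22.5 in the 5 other controls, and the WT difference was -0.92 ± 0.25 (adjusted p = 0.28). Chac1 was below the filter in both fits. No member's difference from control depended on sex at an adjusted p under 0.05 in edgeR in any of the 3 stages, where 0% of the 13501 genes were called. At an unadjusted p under 0.05 the interaction gave 1 member in early disease and none in late disease or recovery, against 2.44%, 4.95% and 5.23% of all genes.

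Other genes of these pathways, from lists of background knowledge, give the wider setting in late disease. Their late calls come from the same fit with all 14 controls, and in the 5 lists of this kind none was called in edgeR against the 5 WT controls of shared dates or with date as a term. Of 32 tested further targets of ATF4 and CHOP, 10 rose and 1 fell, with a median log2 fold change of 0.24, where 9.01% of all genes rose. Of the 30 tested against the 5 WT controls of shared dates 9 were higher and 1 lower at an unadjusted p under 0.05 (background 15.9%). With date as a term these counts were 4 and 0 (background 10.4%). Psat1, an enzyme of serine synthesis, stood at 1.12 ± 0.23 (adjusted p = 0.0016), and the amino acid transporters Slc7a1 and Slc1a5 at 1.20 ± 0.20 and 1.40 ± 0.45. Atf3, a transcription factor induced by ATF4, stood at 0.91 ± 0.21. In recovery 3 of these 32 rose against control, where 3.98% of all tested genes were called either way. They were Psat1 at 1.20 ± 0.23, Atf3 at 0.78 ± 0.21 and Slc7a1 at 0.72 ± 0.20.

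Of 29 genes of ER import and glycosylation, 8 fell and none rose in late disease (median -0.077), where 6.39% of all genes fell. With the 5 WT controls of shared dates 2 of the 29 were lower at an unadjusted p under 0.05 (background 15.9% either way). With date as a term 2 were (background 10.4% either way). Among the 8 were the translocon-associated Tram1 at -0.45 ± 0.10, the signal recognition receptor subunit Srprb at -0.41 ± 0.086, the signal peptidase subunit Spcs2 at -0.40 ± 0.10 and Ssr1 at -0.38 ± 0.099. Srprb was called higher in recovery than in late disease, at 0.44 ± 0.098 (adjusted p = 0.03 in edgeR). Of 30 tested further folding and degradation genes 2 fell, a share near that of all genes, Sdf2 at -0.59 ± 0.12 and Selenok at -0.38 ± 0.097. Of 11 further regulators 1 fell, Creb3 at -0.22 ± 0.074. Among 12 eIF2 kinases and translation regulators, Nck1, an adaptor that binds PERK, fell (-0.59 ± 0.14) and Impact, an inhibitor of GCN2, rose (0.36 ± 0.11).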

How the data were processed

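RNA of microglia sorted from spinal cord was sequenced in 35 libraries, whose cDNA and tagmentation kits keep no strand information, per the labels' protocols. The authors deposited expected counts and TPM values for 45706 genes. RSEM, DESeq2 and the build mm10 are named, per the submitters' processing notes, without versions or settings. Libraries held 13.9 to 20.4 M expected counts, which were rounded to whole numbers. No molecular identifiers are named, so counts are fragments and not molecules.

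Groups, sex and diet came from the labels. For 2 controls, numbers 7 and 8, the deposited design table gave the other sex, which was tried as an alternative. The test was that of edgeR 4.0.16 under R 4.3.3 (quasi-likelihood F test, TMM, filter by group, sex as covariate, 35 libraries) with calls at an adjusted p under 0.05 (Benjamini-Hochberg over all 13501 genes tested). Late against early disease used the 19 libraries of 3 date codes with date as a term. Standard errors came from the F statistic, and 95% intervals from the t distribution of the fit. CPM used TMM library sizes, and arm means averaged log2 CPM with a prior count of 0.5. Alternatives were DESeq2 1.42.0, RLE scaling, no filter, limma 3.58.1 on log2(TPM + 1) and log2(TPM + 0.1) (TPM of at least 1 in 6 libraries), other controls and covariates, and leaving out each library. Pairs of replicate libraries differed by more than counting noise, so each counted once. The tests were checked on simulated data.

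Members and lists were chosen with earlier results of these data known. All members are described, and of each other list at most 4 called genes with the largest change. Marker lists covered microglia, neutrophils, monocytes, B and plasma cells, border macrophages, neurons, oligodendrocytes, astrocytes and endothelial cells. Promoters came from RefSeq on GRCm38.p6.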

Additional observations from a re-analysis of the deposited data

Results flagged for a closer look

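Values were checked for a library far from the other 6 of its group, over 108 combinations of gene or arm mean with group, and 4 stood out. Chance alone marks about 1 in 20 such groups. Derl1 in late library 1 was lowest at 8.41 log2 CPM, with the others from 8.71 to 8.94. Atf6 in late library 6 was highest at 8.09 log2 CPM, with the others from 6.66 to 6.88. Chac1 in early library 5 was lowest at -5.10 log2 CPM, a library without counts of the gene, with the others from -1.11 to -0.26. The mean of the ATF4 arm in early library 5 was lowest at 0.45 log2 CPM, with the others from 1.41 to 2.11, and Chac1 is part of that mean.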

How the results depend on the processing

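For late disease 3 members were higher and 8 lower. These counts were 8 and 3 with limma on log2(TPM + 1) and also on log2(TPM + 0.1), 0 and 0 when the missing TPM share was a covariate, with date as a term, and with the 5 WT controls of shared dates, and 0 and 1 with WT controls only. With rNLS8 controls only 5 were higher, and with rescaled TPM, an alternative chosen after seeing the data like that of the 5 WT controls, 5 were higher. Over all genes those fits called 1388 of 13416 and 1281 of 13405 higher, in that order. For early disease 1 member was higher with TPM + 1, with TPM + 0.1 and with rNLS8 controls only, and 3 were lower with the latter. In that order, 1390 of 13188, 1354 of 13188 and 735 of 13416 genes were called either way. For recovery against control 1 was higher with DESeq2, TPM + 0.1, rescaled TPM and rNLS8 controls only, and 2 with TPM + 1. Genes called higher were, in that order, 489 of 13501, 676 of 13188, 416 of 13405, 468 of 13416 and 693 of 13188. For recovery against late disease 1 was higher with DESeq2 and with each of the 3 TPM fits. DESeq2 called 155 of 13501 genes higher there. Limma called 58 and 49 of 13188 higher with TPM + 1 and TPM + 0.1, and 70 of 13405 with rescaled TPM. No member changed sign among the 11 called. Over all genes the late calls were 1217 higher and 863 lower in the count test and 2627 and 197 on log2(TPM + 1), and in early disease DESeq2 called 136 genes where edgeR called 1. With date as a term 2 genes were called in late disease.

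Replicate numbers did not pair the libraries: of 37 pairs of equal number across groups, 2 had a correlation of deviations over 0.1, and the range was -0.167 to 0.118. With the replicate block 2 members were higher and 3 lower in early disease, 5 were higher in late disease, where Creld2 lost its call, and 2 were higher in recovery. Over all 13501 genes 613 were called with this block in early disease, 2414 in late disease and 912 in recovery against control. The counts without the block were 1, 2080 and 537.

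Leaving out 1 library at a time gave 3 to 11 lower and 2 to 4 higher members in late disease, with 3 lower without late library 3 or 6 and 4 without late library 1. It gave 0 to 2 higher members in recovery against control, 0 to 3 in recovery against late disease, and 0 in the early and the late against early comparisons. Over all genes the calls then ran from 1327 to 2265 in late disease. They ran from 329 to 747 in recovery against control and from 6 to 223 in recovery against late disease.

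Differences in arm means that moved by more than the spread were, on log2(TPM + 1), 0.110 (XBP1 arm) and 0.0405 (ATF6 arm) in early disease, 0.354 and 0.339 (sensors and factors) in early and late disease, and -0.0551 (XBP1 arm) in late disease. On rescaled TPM they were 0.0532 (all members) and 0.559 (ATF4 arm) in recovery and 0.800 (ATF4 arm) in late disease. Against the 5 WT controls of shared dates the XBP1 arm stood at 0.0109 in early disease. The cause of these changes was not tested. Depth limits Trib3, Chac1 and Asns, whose controls held few or no counts.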

Other observations

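Cytosolic heat shock genes, which serve protein folding outside the ER, were not part of the 31. Of 15 tested, 8 fell and 1 rose in late disease, with a median log2 fold change of -0.39, where 6.39% of all genes fell. With date as a term none of the 15 was called (edgeR, 4 lower at an unadjusted p under 0.05, background 10.4% either way). Against the 5 WT controls of shared dates 1 was called (background 0.397%), Dnaja1 at -0.84 ± 0.18. The co-chaperones Dnaja1 and Dnajb1 stood at -0.96 ± 0.13 and -0.81 ± 0.11 (edgeR adjusted p = 1.3e-05 and 1.4e-05), Chordc1 at -1.03 ± 0.18 and Hspa1b, a near-identical copy of Hspa1a and so uncertain, at -1.86 ± 0.60. In recovery 2 of the 15 were still lower than control (background 3.98% either way), Dnaja1 at -0.48 ± 0.13 and Dnajb1 at -0.40 ± 0.11. None of the 15 was called in early disease (6 at an unadjusted p under 0.05, background 12.6%).

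Immediate early genes, which respond within minutes to cell stimulation, rose in 6 and fell in 1 of 12 tested in late disease (median 0.97), where 9.01% of all genes rose and 6.39% fell. With date as a term none was called (edgeR, 3 higher at an unadjusted p under 0.05, background 10.4% either way). Against the 5 WT controls of shared dates 1 was called (background 0.397%), Egr1 at 2.05 ± 0.39. Ier3 stood at 3.20 ± 0.44, Dusp1 at 3.23 ± 0.67 and Egr1 at 1.95 ± 0.31. Late library 6 held the highest sum of these genes, 2423 CPM, and Dusp1 averaged 80.7 ± 189 CPM (SD, n = 7). Ier3 was lower in recovery than in late disease, at -2.28 ± 0.53, and Egr1 stayed above control in recovery, at 1.16 ± 0.31.

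Markers of other cells differed by stage. Of 12 microglial markers 5 fell in late disease (background 6.39%), Tmem119 at -0.72 ± 0.091 and P2ry12 at -0.62 ± 0.15 among them. None of the 12 was called against the 5 WT controls of shared dates or with date as a term. In edgeR 4 and 3 were lower at an unadjusted p under 0.05 (background 15.9% and 10.4% either way). In recovery 10 of 11 tested neutrophil markers and 7 of 8 monocyte markers rose against control (background 3.98% either way). Camp stood at 6.74 ± 1.08 and Chil3 at 8.11 ± 1.07. In late disease 2 of 8 tested monocyte markers rose (background 9.01%), Fn1 and Ms4a4c, and the median log2 fold change of the 8 was -0.077. The 10 monocyte markers summed to 4.96 to 25.4 CPM in controls and 28.7 to 142 in late disease. Of this late sum Fn1 alone averaged 33.8 ± 38.0 CPM (SD). Fn1 stood at 4.25 ± 0.54, and at 4.77 ± 0.88 against the 5 WT controls of shared dates. B and plasma cell markers, the cells best known for XBP1 activity, gave none called of 3 tested in any comparison (edgeR, 0 at an unadjusted p under 0.05 in late disease). Their sum was 235 to 522 CPM in controls and 74.7 to 441 in late disease, lowest in late library 6. Most of it was Ighm, at 230 to 476 and 59.5 to 412 CPM. The other 9 summed to 5.19 to 46.1 and 15.1 to 30.4 CPM, and Jchain, Mzb1, Igkc and Pou2af1 had no counts in controls and late disease. Border macrophage markers gave 1 of 7 higher in late disease and endothelial markers 1 of 3 (background 9.01%), Siglec1 at 2.13 ± 0.54 and Flt1 at 2.36 ± 0.63. Neither list gave a call against the 5 WT controls of shared dates or with date as a term. Of 2 neuronal, 5 oligodendrocyte and 5 astrocyte markers tested none was called in late disease, and none had an unadjusted p under 0.05.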
